A study of Mus musculus with 2 samples.

Results

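Sd8 is one of 13 germ cell clusters that the authors cut from single cells of the adult mouse testis, and it is the one in which the transcripts of Prm1 and Tnp1 took the largest share of the RNA. Its cells were taken by the cluster name in the deposited cell table, with no further choice. It holds 618 of 5170 cells (12%, exact binomial 95% interval 11.1 to 12.9) in the WT library and 784 of 7238 cells (10.8%, 10.1 to 11.6) in the Tex13a-KO library, together 1402 of 12408 cells. Each genotype was 1 library, made from 3 testes pooled from 3 mice of 10 to 12 weeks of the strain C57BL/6 (C57BL/6N in the methods of the study). In the KO mice both exons of the X-linked gene Tex13a had been deleted in the germ line by CRISPR/Cas9, and no other allele or agent is given for either group. Genotype and library cannot be told apart in this design, so no test was made, and every interval covers counting error only.

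Spermatids are haploid germ cells that turn from round cells into sperm without dividing again. During this change the histones are first loosened, then replaced by transition proteins (Tnp1, Tnp2) and at last by protamines (Prm1, Prm2), small arginine-rich proteins that pack sperm DNA tightly. The mRNAs of these proteins are made before transcription stops and are stored, bound to repressor proteins, until the elongating spermatid translates them. The clusters are numbered by the study from Sg (spermatogonia) through Sc1 and Sc2 (spermatocytes) to Sd1 to Sd10 (spermatids, Sd1 mixed with spermatocytes), so that Sd7 stands before Sd8 and Sd9 after it.

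Prm1 (ENSMUSG00000022501.6), Prm2 (ENSMUSG00000038015.6), Prm3 (ENSMUSG00000050058.6) and Tnp2 (ENSMUSG00000043050.8) lie next to one another on the minus strand of chromosome 16, within 17904 bases from 10787936 to 10805839 in GRCm38. Tnp1 (ENSMUSG00000026182.6) lies apart from them on the minus strand of chromosome 1, from 73015074 to 73015909, with 2 exons. The promoters of the 4 genes with the most UMIs in Sd8 are shown. The transcripts of Tnp1 and Tnp2 were already scarce in Sd9, whereas Prm1 stayed and Prm2 went on to higher shares. A link between the promoters and these courses was not tested. Each sequence is from RefSeq (GRCm38.p6), 300 bases from the transcribed strand's 5′ side into the gene, at chr16:10796774-10797073 for Prm1, chr1:73015850-73016149 for Tnp1, chr16:10792056-10792355 for Prm2 and chr16:10788606-10788905 for Tnp2, all on the minus strand. Capitals mark matches to TGANNTCA, the binding letters of cyclic AMP response elements with the middle bases left free, and to TATAA on either strand.
Prm1: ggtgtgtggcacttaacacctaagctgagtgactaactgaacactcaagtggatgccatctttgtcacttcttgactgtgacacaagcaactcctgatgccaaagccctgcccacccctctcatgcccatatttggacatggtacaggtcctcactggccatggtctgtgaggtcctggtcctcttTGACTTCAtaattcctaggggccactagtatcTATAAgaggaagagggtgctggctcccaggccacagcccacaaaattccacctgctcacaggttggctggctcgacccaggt
Tnp1: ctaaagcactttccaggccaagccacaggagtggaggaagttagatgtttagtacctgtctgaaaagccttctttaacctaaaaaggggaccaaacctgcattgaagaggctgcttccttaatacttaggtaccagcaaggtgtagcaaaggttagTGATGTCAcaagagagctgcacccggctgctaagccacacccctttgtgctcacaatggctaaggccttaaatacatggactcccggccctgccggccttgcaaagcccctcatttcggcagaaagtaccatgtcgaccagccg
Prm2: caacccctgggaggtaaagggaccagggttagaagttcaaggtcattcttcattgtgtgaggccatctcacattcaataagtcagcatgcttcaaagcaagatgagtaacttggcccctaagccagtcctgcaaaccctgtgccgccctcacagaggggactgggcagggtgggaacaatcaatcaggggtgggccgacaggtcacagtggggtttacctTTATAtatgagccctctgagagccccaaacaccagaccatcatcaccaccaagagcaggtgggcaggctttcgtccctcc
Tnp2: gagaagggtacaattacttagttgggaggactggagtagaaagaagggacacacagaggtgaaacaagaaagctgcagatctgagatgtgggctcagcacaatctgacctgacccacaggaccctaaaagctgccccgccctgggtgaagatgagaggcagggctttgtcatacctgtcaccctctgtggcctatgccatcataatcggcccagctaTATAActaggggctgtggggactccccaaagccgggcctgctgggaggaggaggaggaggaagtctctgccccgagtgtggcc

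The full octamer TGACGTCA was in none of these windows, nor in that of Prm3, and in 1.79% of all 32851 RefSeq promoters of this length. The form with free middle bases was in 14.1% of all promoters. It was read as TGACTTCA in Prm1 from position -64 relative to the annotated start, as TGATGTCA in Tnp1 from position -94 and as TGAGGTCA in Prm3 from position -60, and was not found in the windows of Prm2 and Tnp2. TATAA, which 24.9% of all promoters hold on one strand or the other, was found in Prm1 from position -32 and in Tnp2 from position -33, and in Prm2 on the opposite strand from position -30. The matches describe letters in a window and do not show that a factor binds there.

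Levels are given as CPM, the UMIs of a gene scaled to a total of 1000000 UMIs over all cells of that library and cluster, so they are shares of the RNA read and not amounts per cell. A UMI stands for 1 captured molecule, and no scaling by transcript length was made. Prm1 had 157913 CPM in Sd8 of the WT library and 158505 CPM in Sd8 of the KO library. In Sd7 it had 130040 CPM in WT and 129497 CPM in KO, and in Sd9 149173 CPM in WT and 139848 CPM in KO. Sd8 was thus the highest of the 13 clusters for Prm1 in both libraries, but by a small margin over Sd9: the log2 ratio of Sd8 to Sd9 was 0.08 (95% counting interval 0.08 to 0.09) in WT and 0.18 (0.17 to 0.19) in KO. Against Sd7 it was 0.28 in WT and 0.29 in KO. In Sd10 the level was 38041 CPM in WT and 31101 CPM in KO.

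Tnp1 had 52859 CPM in Sd8 of WT and 48400 CPM in Sd8 of KO. Sd7 held 49019 and 46285 CPM, and Sd9 7903 and 7507 CPM, in WT and KO. Sd8 was again the highest of the 13 clusters in both libraries, close above Sd7 (log2 ratio 0.11 in WT and 0.06 in KO) and far above Sd9 (2.74, or 6.69-fold, in WT and 2.69, or 6.45-fold, in KO). The name of the cluster by its highest Prm1 and Tnp1 therefore held in both libraries. It is a description, because the clusters were cut on the expression of these genes, and the same is true of every difference between Sd8, Sd7 and Sd9 given here.

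Clusters that should hold little Prm1 were not free of it. The CPM of Prm1 was 21336 in Sg and 3910 in Sd1 of WT, and 20665 and 3606 in KO, and 99.6% of 513 Sd1 cells of WT had at least 1 UMI of it. The source of these UMIs was not tested. The levels in Sd8 were over them in each library, and all 618 WT and 784 KO cells of Sd8 held UMIs of both Prm1 and Tnp1.

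**Figure D1:**
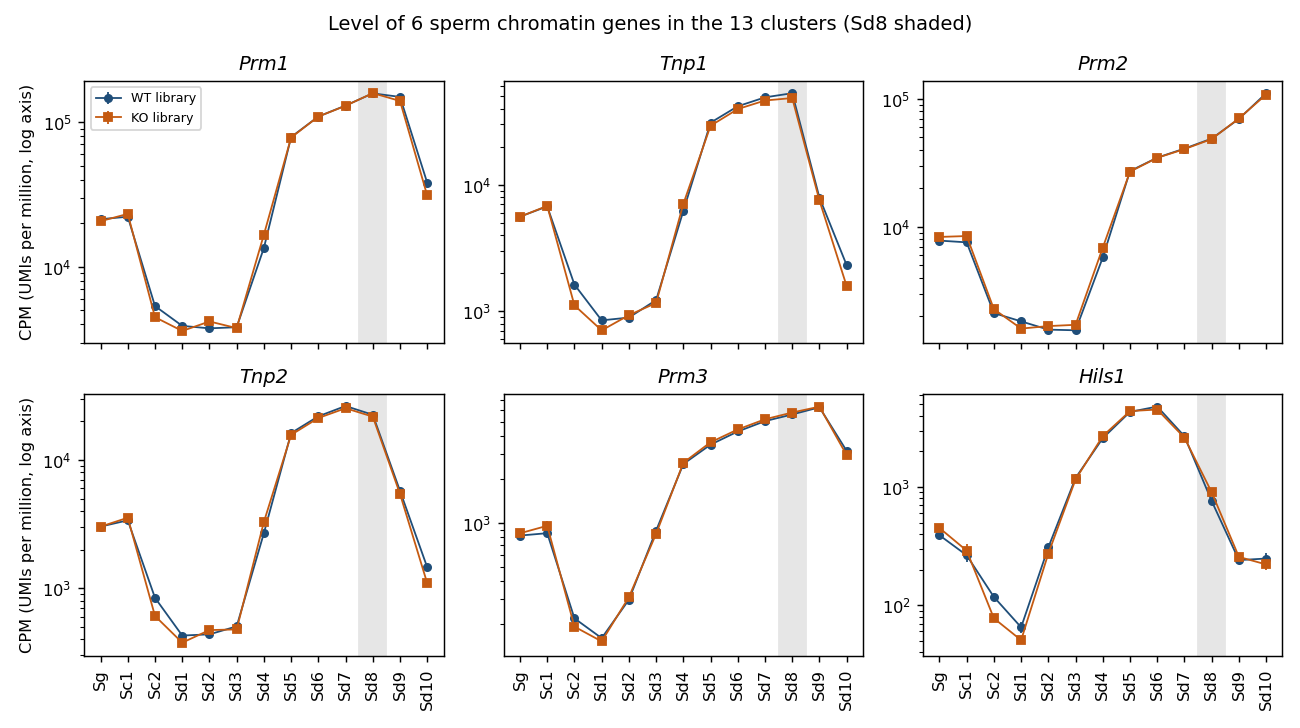
CPM (log axis) of Prm1, Tnp1, Prm2, Tnp2, Prm3 and Hils1 in the 13 clusters, with WT as circles and KO as squares. Bars are exact Poisson 95% intervals and mostly smaller than the symbols. Prm1 and Tnp1 are highest in the shaded Sd8, Tnp2 and Hils1 are already lower there than in Sd7, and Prm2 goes on from 48757 CPM in Sd8 to 110257 CPM in Sd10 of WT.

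The other genes of this group were at other points of their course. Tnp2, the second transition protein, had 26382, 22535 and 5739 CPM in Sd7, Sd8 and Sd9 of WT and 25340, 21792 and 5434 CPM in KO, so its highest cluster came before Sd8. Prm2, which needs processing of its protein before it packs DNA, had 40738, 48757 and 69505 CPM in WT and 40372, 48361 and 70126 CPM in KO and was still higher in Sd10. Prm3, a member of the same gene cluster, had 5043, 5607 and 6280 CPM in WT and 5195, 5783 and 6344 CPM in KO. Its log2 ratio of Sd8 to Sd9 in KO, -0.13, turned to 0.07 when centred on the median gene and to 0.12 with TMM scaling. Hils1, a linker histone of spermatids, had 2688, 761 and 241 CPM in WT and 2615, 903 and 256 CPM in KO, which is 3.53-fold and 2.9-fold lower in Sd8 than in Sd7. H1fnt, another testis linker histone, had 1406, 1452 and 1096 CPM in WT and 1337, 1372 and 932 CPM in KO, and its ratio of Sd8 to Sd7 was 0.05 in WT and 0.04 in KO, with intervals that included 0 in both, and it was -0.0026 in KO with cells thinned to 3000 UMIs.

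Prm1, Prm2, Prm3, Tnp1 and Tnp2 together made up 28.8% of the UMIs of Sd8 in WT and 28.3% in KO, more than in any other cluster. Their share was 25.1% and 24.7% in Sd7 and 23.9% and 22.9% in Sd9. The number of genes that gave 50% of the UMIs was 76 in WT Sd8 and 79 in KO Sd8, against 107 and 111 in Sd7 and 72 and 75 in Sd9. The balance between the genes moved more than their sum: there were 2.99 UMIs of Prm1 for each UMI of Tnp1 in Sd8 of WT and 3.27 in KO, against 2.65 and 2.8 in Sd7 and 18.9 and 18.6 in Sd9. After these genes, Sd8 was led in both libraries by Smcp (a protein of the sperm mitochondrial capsule, 1.51% of WT UMIs), Oaz3 (an antizyme of polyamine synthesis made in spermatids, 1.04%), Hmgb4 (a germ cell HMG-box protein, 0.784%) and Dbil5 (0.732%).

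Single cells of Sd8 spread widely around these means. The share of Prm1 in the UMIs of a cell had a median of 16.4% in WT, with a 5th percentile of 12% and a 95th of 19.9%, and 16.2%, 12% and 20.0% in KO. In Sd7 the median was 13.5% in WT and 13.2% in KO with a narrower spread (11.1% to 15.8% in WT). In Sd9 it was 16.5% in WT and 15% in KO with a wide one (6.87% to 21.3% in WT), so that in WT the median cell of Sd9 held as much Prm1 as the median cell of Sd8, and the lower mean of Sd9 came with a tail of cells low in Prm1. Tnp1 separated the clusters more clearly. Its median share was 5.47% in Sd8 of WT and 5.0% in KO, and 0.347% and 0.344% in Sd9, and the 5th percentile of Sd8 (3.7% in WT, 3.19% in KO) lay above the 95th percentile of Sd9 (2.62% and 2.47%).

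**Figure D2:**
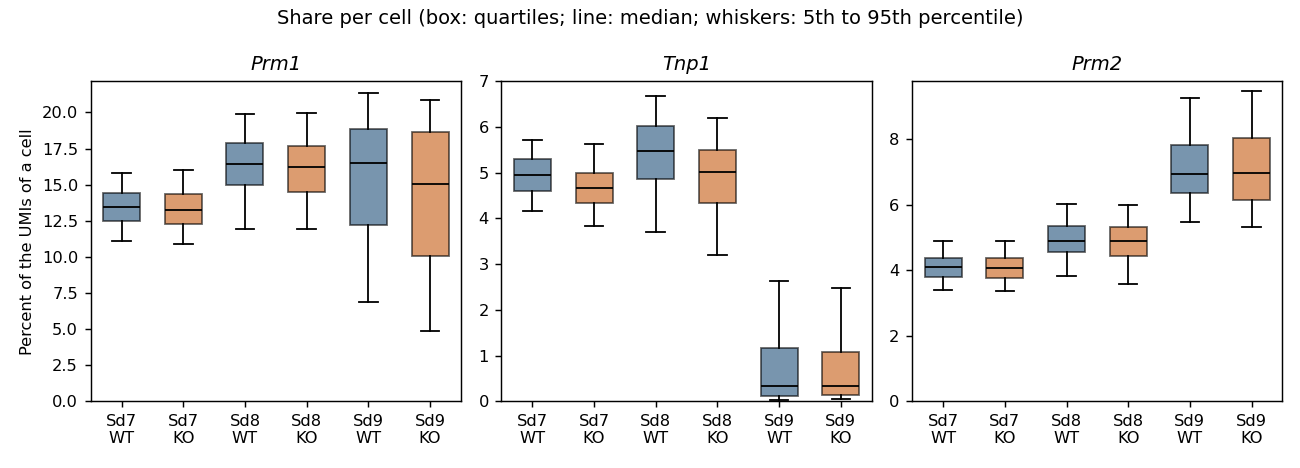
Percent of the UMIs of a cell that came from Prm1, Tnp1 and Prm2 in Sd7, Sd8 and Sd9, WT in blue and KO in orange; boxes span the quartiles, lines are medians and whiskers reach from the 5th to the 95th percentile. Tnp1 drops from a median of 5.47% in Sd8 to 0.347% in Sd9 of WT, Prm2 climbs from 4.9% to 6.94%, and Prm1 widens with little change of its median.

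Depth did not differ much along the 3 clusters. A cell of Sd8 had a median of 5254 UMIs and 1270 genes in WT and 5270 UMIs and 1310 genes in KO. The median UMIs were 5871 and 5673 in Sd7 and 4994 and 4978 in Sd9. Every Sd8 cell had at least 3266 UMIs in WT and 3686 in KO, and the sums of Sd8 were 3833785 UMIs in WT and 4792579 UMIs in KO. The median percent of mitochondrial UMIs was 0.269 in WT and 0.412 in KO, against 0.219 and 0.28 in Sd7 and 0.408 and 0.637 in Sd9.

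Against Sd7, few genes were much higher in Sd8 and more were much lower. Of 4450 genes with at least 10 UMIs over both clusters in WT, 114 (2.56%) were at least 2-fold higher in Sd8 and 422 (9.48%) at least 2-fold lower; in KO these were 79 (1.74%) and 351 (7.72%) of 4544. Most of the higher ones had few UMIs. Among 2732 genes with at least 100 UMIs in each library, 0 (0.0%) were at least 2-fold higher in both libraries and 179 (6.55%) were at least 2-fold lower in both. The median log2 ratio of all genes read was -0.03 in WT and -0.06 in KO.

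The genes lowest in Sd8 against Sd7 belonged to several structures of the sperm. Cdyl, a chromodomain corepressor, had 266 CPM in Sd7 and 48.5 CPM in Sd8 of WT, and 287 and 67.8 CPM in KO. Cypt1, a cysteine-rich protein of the perinuclear theca, the shell between nucleus and acrosome, had 1960 and 440 CPM in WT and 1976 and 513 CPM in KO. Akap3, an anchoring protein of the fibrous sheath of the tail, had 366 and 86.6 CPM in WT and 380 and 96.6 CPM in KO. Tssk1, a testis-specific serine kinase, had 274 and 50.6 CPM in WT and 261 and 67.6 CPM in KO. In all 4 the level in Sd8 was less than 30% of that in Sd7 in each library. Frat1, Odf3, Cacul1, 1700025B11Rik, 4921530L21Rik and 1700129C05Rik completed the 10 lowest, with log2 ratios between -2.51 and -1.96.

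The 10 genes highest in Sd8 against Sd7 included 5 of the mitochondrial genome. The RNA of the small mitochondrial ribosomal subunit, mt-Rnr1, had 319 CPM in Sd7 and 582 CPM in Sd8 of WT, and 347 and 648 CPM in KO. mt-Nd5 and mt-Cytb, which encode subunits of respiratory complexes, had log2 ratios of 0.92 and 0.71 in WT and 0.72 and 0.84 in KO. mt-Rnr2 and mt-Nd2 were also among the 10, with Sycp3, a protein of the meiotic synaptonemal complex (10.5 and 18.8 CPM in WT, 13.7 and 19.6 CPM in KO), and Gm4366, Gm42418, AC121965.1 and 4933428G20Rik. All of these stayed below 2-fold, and Sycp3 was far below the marker genes of Sd8 in level.

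Against Sd9 more genes were at least 2-fold higher than lower in Sd8. Over genes of any size of difference more were lower in CPM, but this depended on the scaling. In WT 455 of 4345 genes (10.5%) were at least 2-fold higher in Sd8 and 254 (5.85%) at least 2-fold lower, and in KO 479 (10.8%) and 390 (8.82%) of 4421. With at least 100 UMIs in each library, 250 of 2380 genes (10.5%) were at least 2-fold higher in both libraries and 5 (0.21%) at least 2-fold lower in both. The counting interval lay above 0 for 902 genes and below 0 for 1010 in WT, and for 939 and 1313 in KO; against Sd7 these were 666 and 1072 in WT and 643 and 1136 in KO. The median log2 ratio of all genes read was -0.12 in WT and -0.21 in KO. When the ratios were centred on this median, 74.9% of the genes 2-fold apart in WT and 73.9% in KO were higher in Sd8, against 64.2% and 55.1% as given. With TMM scaling the median of all genes read was 0.012 in WT and 0.048 in KO. The counts of intervals were taken without such scaling.

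Among the 10 genes with the largest ratios of Sd8 to Sd9, Hmgb4 was the most abundant after Tnp1. It had 7845 CPM in Sd8 and 1070.5 CPM in Sd9 of WT, and 8601 and 1199 CPM in KO, 7.33-fold and 7.17-fold higher in Sd8. Spcs2, a subunit of the signal peptidase, had 720 and 102 CPM in WT and 673 and 90.9 CPM in KO. Fam71f1 had 302 and 36.3 CPM in WT and 284 and 42.7 CPM in KO. The largest ratios were those of 1700052I22Rik (log2 3.22 in WT and 3.30 in KO), 4930413G21Rik (3.23 and 3.08) and Gm4907 (3.33 and 3.05). CT030662.3, Gm136 and Ppp1r2-ps7 completed the 10 with Tnp1, and each of the 10 was lower in Sd8 than in Sd7 except Tnp1.

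The 10 genes lowest in Sd8 against Sd9 with at least 100 UMIs were nearer to 2-fold than the 10 highest. Odf1, a main protein of the outer dense fibres of the tail, had 438 CPM in Sd8 and 837 CPM in Sd9 of WT, and 386 and 744 CPM in KO. mt-Nd2 had 36.0 and 86.2 CPM in WT and 33.4 and 86.2 CPM in KO. The meiotic genes Sycp3 (18.8 and 40.1 CPM in WT) and Sycp1 (31.6 and 65.6 CPM in WT), the nucleolar gene Ncl, Hmgb2, Smarca5, Diablo, mt-Nd5 and mt-Co1 made up the rest of the 10. Sd9 thus held more of the markers of earlier cells and of mitochondrial RNA than Sd8 did, and their part in these ratios was not tested.

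**Figure D3:**
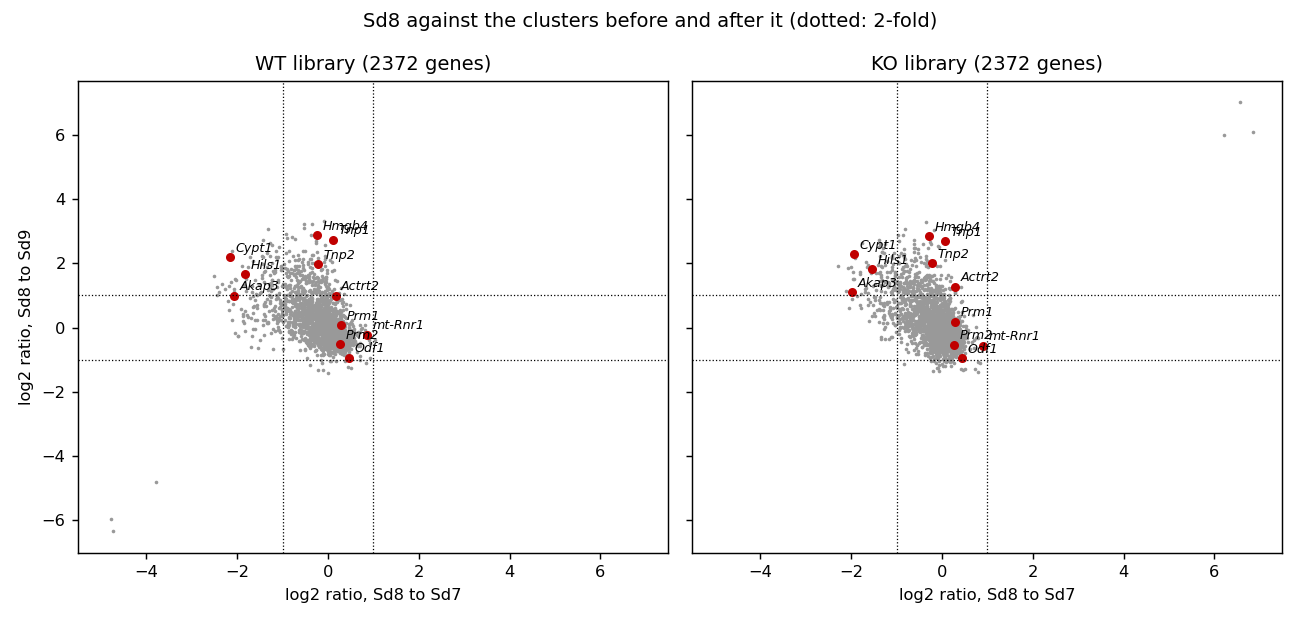
log2 ratios of Sd8 to Sd7 (x axis) and of Sd8 to Sd9 (y axis) for 2372 genes with at least 100 UMIs over both clusters of each comparison in each library, WT left and KO right. Most genes lie between the dotted 2-fold lines, genes such as Cypt1 and Akap3 lie to the left, Hmgb4, Tnp1 and Tnp2 lie high near the middle, and the 3 separate points in each panel are haemoglobin genes from single cells.

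Genes whose level was highest in Sd8 of all 13 clusters were few, and they stood little above their nearer neighbour, the higher of Sd7 and Sd9. Of 1919 genes with at least 100 UMIs in Sd8 of each library, 55 (2.87%) had their highest CPM in Sd8 in both libraries, Prm1 and Tnp1 among them. In 15 of the 55, with Prm1 and Tnp1 among them, the counting intervals of Sd8 lay above those of both Sd7 and Sd9 in both libraries. The genes named next are instead the 15 with the largest ratio to the nearer neighbour; 8 of them also stood apart by their intervals, and 7, with Hspa1l, did not. Mex3d, an RNA-binding protein with KH domains, stood highest over its nearer neighbour: it had 252, 304 and 214 CPM in Sd7, Sd8 and Sd9 of WT and 224, 269 and 179 CPM in KO. Actrt2, an actin-related protein of the perinuclear theca, had 1324, 1485 and 748 CPM in WT and 1165, 1418 and 585 CPM in KO. Adam3, a sperm surface protein needed for passage into the oviduct, had 334, 376 and 190 CPM in WT and 359, 399 and 199 CPM in KO. Hspa1l, a heat shock protein of spermatids, had 407, 521 and 477 CPM in WT and 495, 562 and 462 CPM in KO. 1700022A21Rik, Bag6, Spata21, Fam217a, Gm45839, 1700063D05Rik, Txndc2, 4930503B20Rik, 1700003E24Rik, 1700061J23Rik and Odf3b completed these 15 by ratio, whose smaller log2 ratio to the nearer neighbour ran from 0.12 to 0.27. Genes at their highest level in Sd8 by a large fold over both neighbours were thus not among these.

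The genes most like Prm1 and Tnp1 over the clusters are given as a description. Over the 13 WT clusters and 1922 genes, Klk1b8 (r = 0.999 on log2 CPM), Paqr5, Nqo2, Klk1b9 and 1700008P02Rik followed Prm1 most closely. Klk1b8 had 1358, 1562 and 1546 CPM in Sd7, Sd8 and Sd9 of WT, and its r in KO was 0.999. Tex37 (r = 0.997), Tnp2, Ppp1r2-ps7, Tfam and Vmn2r7 followed Tnp1, with 1815, 1732 and 290 CPM of Tex37 in Sd7, Sd8 and Sd9. The Klk1b genes have near-identical copies, so their values are uncertain. These correlations describe 13 points that share a library and its background, and they say nothing on control.

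Lists of genes by role, mostly put together by hand and with earlier results of these data known, were read for whole structures. Their counts stand against all genes read, of which 9.48% in WT and 7.72% in KO were at least 2-fold lower and 2.56% and 1.74% at least 2-fold higher than in Sd7, and 10.5% and 10.8% at least 2-fold higher than in Sd9. Of all genes, 46.9% in WT and 44.6% in KO were above 0 against Sd7, and 43.4% and 39.1% against Sd9. Of the outer dense fibre and fibrous sheath, 19 of 20 listed genes could be read: 14 were above and 5 below 0 against Sd7, with 0 at least 2-fold higher and 2 at least 2-fold lower (Odf3 and Akap3), near the 9.48% of all genes in WT, and the median log2 ratio was 0.31 in WT and 0.28 in KO. Against Sd9 the median was -0.42 in both libraries, and 2 of 19 (in WT Ropn1 and Odf3, in KO Ropn1 and Akap3) were at least 2-fold higher in Sd8. Odf2, Gapdhs (the sperm form of a glycolytic enzyme), Tcp11 and Oaz3 were all between their Sd7 and Sd9 levels in Sd8. Oaz3, for example, had 8123, 10405 and 16762 CPM in WT and 7772, 9959 and 16694 CPM in KO. Akap4, the main protein of the fibrous sheath, had 1152, 1494 and 2040 CPM in WT and 1393, 1814 and 2266 CPM in KO, so it parted from its partner Akap3.

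The perinuclear theca and head-shape list went the other way. Of its 25 genes read in WT, 0 were at least 2-fold higher and 6 at least 2-fold lower in Sd8 than in Sd7 (1 and 6 of 26 in KO), where 9.48% and 7.72% of all genes were lower, and 8 of 25 in WT and 9 of 26 in KO were at least 2-fold higher than in Sd9, where 10.5% and 10.8% of all genes were. The medians were -0.47 and -0.30 against Sd7 and 0.37 and 0.40 against Sd9, in WT and KO. Cypt3 had 1732, 910 and 181 CPM in WT and 1601, 895 and 165 CPM in KO. Meig1, needed for the manchette that shapes the head, had 5185, 2847 and 670 CPM in WT and 4864, 2698 and 728 CPM in KO. Spag4, a protein of the nuclear envelope behind the head, had 383, 122 and 28.6 CPM in WT and 337, 130 and 21.2 CPM in KO. Spem1, needed for shedding of the cytoplasm, did not follow them and had 641, 766 and 1307 CPM in WT and 604, 739 and 1238 CPM in KO.

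Among genes of histone removal, 9 of 20 listed could be read, 8 of them in WT. None was at least 2-fold higher than in Sd7, and 2 in WT (Cdyl and Ube2b) and 1 in KO (Cdyl) were at least 2-fold lower, beside 9.48% and 7.72% of all genes. Chd5, a remodeller of spermatid chromatin, had 396, 269 and 121 CPM in WT and 403, 255 and 119 CPM in KO. Brdt, whose bromodomains bind acetylated histones, had 16.9, 23.0 and 30.9 CPM in WT and 24.4, 26.7 and 36.1 CPM in KO. Chd5, Cdyl and Hmgb4 were the 3 genes at least 2-fold higher in Sd8 than in Sd9 in each library, beside 10.5% and 10.8% of all genes.

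Among regulators of transcription, 11 of 17 could be read, and only Hemgn was at least 2-fold lower than in Sd7 in each library, a share near the 9.48% and 7.72% of all genes. Crem, the switch of many spermatid genes, was low throughout (46.1, 49.8 and 66.4 CPM in WT). Fhl5, its testis coactivator, had 389, 243 and 64.5 CPM in WT and 373, 257 and 51.7 CPM in KO. With Sox30 it was at least 2-fold higher in Sd8 than in Sd9 in each library. These were 2 of the 11 read, beside 10.5% and 10.8% of all genes.

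Genes of mRNA storage parted within their family. Of 21 read, 4 in WT and 5 in KO were at least 2-fold lower in Sd8 than in Sd7, and 0 at least 2-fold higher, beside 9.48% and 7.72% of all genes lower and 2.56% and 1.74% higher. Ybx2, the germ cell Y-box protein that binds stored mRNA, had 863, 986 and 1360 CPM in WT and 847, 973 and 1318 CPM in KO. Its relatives Ybx1 and Ybx3 were lower in Sd8 than in Sd7: Ybx1 had 450, 123 and 95.8 CPM and Ybx3 had 289, 67.8 and 40.5 CPM in WT. Papolb, a testis poly(A) polymerase, had 251, 133 and 17.6 CPM in WT and 258, 104 and 18.8 CPM in KO. It was the only one of the 21 at least 2-fold higher in Sd8 than in Sd9 in each library, beside 10.5% and 10.8% of all genes. At least 2-fold lower than in Sd9 were 2 in WT and 3 in KO, beside 5.85% and 8.82% of all genes.

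The medians of the acrosome and the axoneme lists were below 0. Against Sd7 they were -0.14 and -0.08 in WT and -0.07 and -0.10 in KO, and against Sd9 -0.22 and -0.15 in WT and -0.36 and -0.48 in KO, where the medians of all genes were -0.12 and -0.21 in WT and KO. The sums of the lists, to which abundant members give most, went differently. The axoneme list summed to 6415, 4014 and 1848 CPM in Sd7, Sd8 and Sd9 of WT and 6275, 3970 and 2197 CPM in KO. The acrosome list summed to 3433, 3565 and 4410 CPM in WT and 3672, 3898 and 4714 CPM in KO. Of 19 acrosome genes, 3 in WT and 1 in KO were at least 2-fold lower than in Sd7, with Spaca7 in both (165 and 35.7 CPM in WT). Of the axoneme genes, 1 of 25 in WT and 0 of 24 in KO were, and of all genes 9.48% and 7.72%. Of 10 testis-specific kinase genes read, Tssk1 in both libraries and Tssk4 in WT were at least 2-fold lower than in Sd7, and Tssk6 had 1155, 1370 and 1904 CPM in WT.

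Most genes of energy supply stood between the neighbours. Of 17 read, 12 in WT and 14 in KO were above Sd7, and 15 in each library were below Sd9, beside 46.9% and 44.6% of all genes above Sd7 and 43.4% and 39.1% above Sd9, with medians of 0.20 and 0.19 against Sd7 and -0.33 and -0.59 against Sd9. Smcp had 12646, 15075 and 21942 CPM in WT and 12790, 15219 and 22751 CPM in KO. Slc2a3, a glucose transporter, was at least 2-fold higher than in Sd7 in both libraries, but on few UMIs (10 in Sd7 and 17 in Sd8 of WT). Ldhc, the lactate dehydrogenase of germ cells, was the only one at least 2-fold lower, with 3245, 1223 and 755 CPM in WT and 3346, 1356 and 841 CPM in KO. Of the genes encoded in mitochondria, 9 had enough UMIs, or 8 in KO against Sd9, and their median was 0.63 in WT and 0.72 in KO against Sd7 and -0.92 and -1.09 against Sd9.

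Of 16 late spermatid markers, 13 were above Sd7 and below Sd9 in both libraries, with medians of 0.31 and -0.61 in WT, and the exceptions were Tex37, Spata19 and Tnp2. Of 17 round spermatid markers read, 2 (Cdyl and Hemgn) were at least 2-fold lower than in Sd7 in each library. This is near the 9.48% and 7.72% of all genes. The median was 0.05 in WT and 0.09 in KO. Ubiquitin and proteasome genes (27 read) had medians of -0.05 and -0.02 against Sd7 and -0.28 in each library against Sd9, heat shock proteins (23 read) 0.20 and 0.04 and -0.22 and -0.37. Of the cytosolic ribosomal protein genes, 10 of 75 in WT and 9 of 74 in KO were at least 2-fold lower than in Sd7, near the 9.48% and 7.72% of all genes, among them Rpl13 (log2 ratio -2.07 and -1.88), although the median of the list was 0.05 and 0.07; genes of this family have many near-identical copies, so single members are uncertain.

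**Figure D4:**
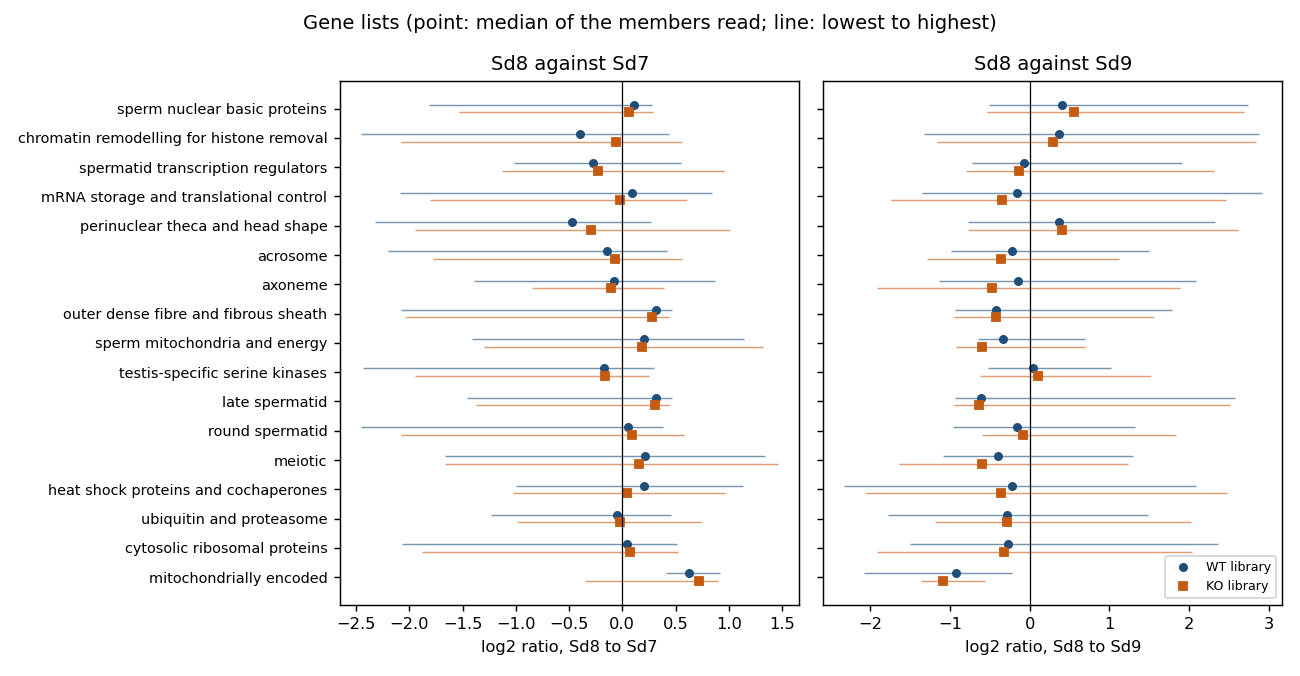
Median (points) and full range (lines) of the log2 ratios of the members of 17 gene lists, Sd8 against Sd7 on the left and against Sd9 on the right, WT as circles and KO as squares. The medians of outer dense fibre, energy, late spermatid and mitochondrially encoded genes lie right of 0 on the left and left of 0 on the right. Those of perinuclear theca genes lie the other way round. The range of the mitochondrially encoded genes crosses 0 only against Sd7 in KO, where it runs from -0.35 to 0.90. The ranges of the other lists named here cross 0 in both panels.

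Markers of other cells were low in Sd8. Meiotic genes (17 listed with a row) summed to 2207 CPM in WT and 2049 CPM in KO, of which Ubb alone gave 1352 and 1192 CPM. In Sd7 they summed to 2113 and 2108 CPM. Most were above 0 against Sd7, 14 of 16 read in WT and 13 of 17 in KO, beside 46.9% and 44.6% of all genes. Against Sd9, 1 of 17 in WT and 3 of 17 in KO were above 0, beside 43.4% and 39.1% of all genes. Spermatogonial genes summed to 35.7 and 42.1 CPM, against 81.7 and 84.3 CPM in Sd9. Of the somatic lists, few genes could be placed: 2 of 10 for Sertoli cells summed to 8.61 CPM in WT and 2.5 CPM in KO, 2 of 7 for Leydig cells to 7.56 and 7.72 CPM, 3 of 8 for macrophages to 31.6 and 28.6 CPM, nearly all of it C1qb, and Myh11 as 1 of 7 for myoid and endothelial cells had 2.35 and 3.96 CPM. Red blood cells were the exception. Hba-a1, Hba-a2 and Hbb-bs summed to 9.39 CPM in WT and 784 CPM in KO, but 3702 of the 3755 UMIs in KO came from 1 cell of 22268 UMIs, the deepest of Sd8 in KO. Without that cell they summed to 11.1 CPM in KO.

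By the 2-fold limit, Sd8 of the KO library was close to Sd8 of the WT library. Of 4449 genes, 106 (2.38%) were at least 2-fold higher and 75 (1.69%) at least 2-fold lower in KO, but of 2688 genes with at least 100 UMIs only 7 were higher and 0 lower. With a minimum of 50 UMIs the total fell from 181 to 23 genes. Smaller differences were more common: the counting interval lay above 0 for 542 genes (12.2%) and below 0 for 342 (7.69%). Of 19 acrosome genes read, 17 were above and 2 below 0, with a median of 0.28, beside 56.3% of all genes above 0. The reason was not tested. Prm1 differed by 0.01 on the log2 scale, Prm2 by -0.01, Tnp2 by -0.05 and Tnp1 by -0.13 (interval -0.14 to -0.12), so the CPM of Tnp1 was 1.09-fold lower in KO. Hils1 differed by 0.25 and Hmgb4 by 0.13. The direction of the Prm1 difference changed in 5 of 12 alternative settings, and that of Tnp1 in 0 of 12. The settings with another minimum or another placing of symbols only change which genes are read, so they could not turn either direction. A larger prior adds the same share to both sides and could not do so either. The share of cells in Sd8 was 12% in WT and 10.8% in KO.

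The targeted gene could not be used to check the label. For Tex13a 7 matrix rows were possible, and 1 of them had no UMI in the KO library; in Sd8 of WT that row had 425 UMIs (111 CPM) in 283 of 618 cells, and in Sd8 of KO 0 UMIs, which allows up to 0.626 CPM. A row picked by its absence in KO is no check.

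The genes furthest apart between the libraries in Sd8 were 1700030C10Rik and the haemoglobin genes. 1700030C10Rik had 0 UMIs in Sd8 of WT and 423 UMIs (88.3 CPM) in KO. That KO level was 113-fold the CPM that 3 UMIs would give in Sd8 of WT. The counting interval of its log2 ratio of KO to WT began lower, at 6.51. The difference was not particular to Sd8. The CPM of 1700030C10Rik ran from 16.6 to 88.3 over the clusters of KO and reached at most 5.88 in those of WT. Without the rule on rarely seen rows its symbol can stand for 13 rows. The same holds for some other genes named here, such as Bag6, 4930503B20Rik and 1700025B11Rik. Rwdd1 had 28 UMIs (7.3 CPM) in WT and 80 UMIs (16.7 CPM) in KO and had 51.1 and 48.1 CPM in Sd7. At the other end Rsph3a, of the radial spokes of the tail, had 89 and 67 UMIs (23.2 and 14 CPM, log2 ratio -0.73, interval -1.21 to -0.26), followed by Scrt1, Fkbp8, Gm43016 and Gm2000 with ratios from -0.72 to -0.65. Psme4, the proteasome activator that takes part in histone breakdown, had 419 CPM in WT and 619 CPM in KO, and it differed in the same way in Sd7 (437 and 644 CPM) and Sd9 (332 and 504 CPM).

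The 2 mitochondrial ribosomal RNAs together had 3280 CPM (interval 3222 to 3337) in Sd8 of WT and 4560 CPM (4500 to 4621) in KO. The other 28 mitochondrial genes together had 279 CPM (262 to 296) in WT and 233 CPM (219 to 247) in KO, so the sets differed in opposite directions in Sd8. In Sd7 the first pair had 2156 and 2747 CPM and in Sd9 4582 and 7054 CPM. The other 28 had 183 and 148 CPM in Sd7 and 528 (500 to 556) and 535 (507 to 564) CPM in Sd9, where their intervals overlapped.

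**Figure D5:**
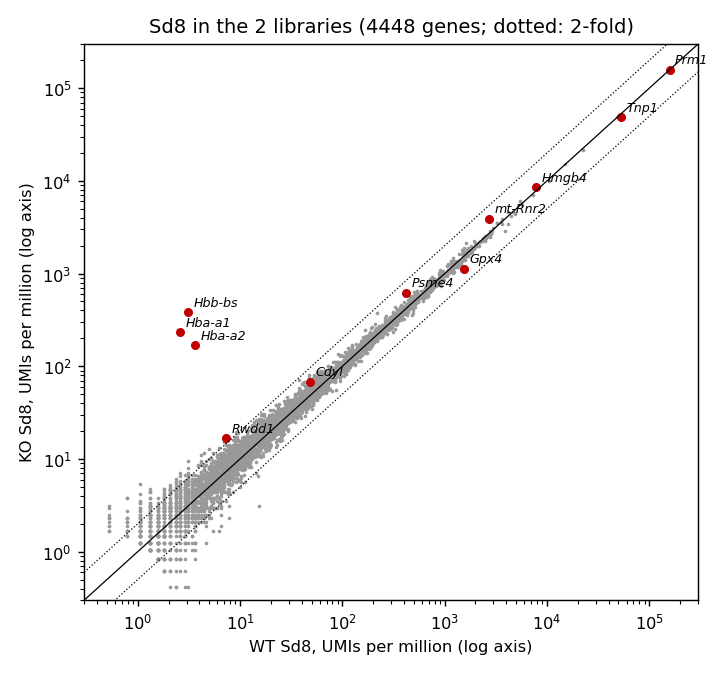
CPM in Sd8 of WT (x axis) and KO (y axis), both axes log, for 4448 genes with at least 10 UMIs over both libraries and at least 1 in each; the solid line marks equal levels and the dotted lines 2-fold. Prm1 at 157913 and 158505 CPM lies on the line, and the 3 haemoglobin genes of 1 KO cell lie far above it.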

How the data were processed

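Single-cell RNA-seq of 1 WT and 1 Tex13a-KO library was read. The authors trimmed reads with fastp, aligned them to mm10 with STAR (2.5.3a), counted them on Ensembl genes with featureCounts (1.6.2) and collapsed reads sharing barcode, UMI and gene. Deposited were raw UMI counts for the cells kept by the authors in Seurat (3.2.3), whose limits are not given in the sources used here. The deposited cell table gives library, cluster, UMI count and the percent of mitochondrial UMIs. No cell was removed and no doublet caller was run; how doublets were treated before is not given in the sources used here. No barcode was shared between the libraries (0 shared).

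There are 25065 symbols for 26758 matrix rows. The 30 mitochondrial symbols were placed by the deposited percent, which was matched exactly in 12408 of 12408 cells. Other symbols were placed by order, with only rows seen in fewer than 5 cells allowed to lack one. This gave 5476 symbols with 1 possible row, holding 94.2% of the UMIs of Sd8; without that rule there are 2648. Other symbols are not analysed here.

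Sums of UMIs were taken over the cells of a cluster in each library, and CPM are these sums scaled to a total of 1000000. log2 ratios have a prior of 1 UMI per gene, shared by depth. Genes with at least 10 UMIs over both sides were read, and 2-fold was the limit for counts of genes. Levels have exact Poisson, shares exact Clopper-Pearson and ratios exact binomial 95% intervals; PCR and pooling are not covered. Scripts (Python 3.11.15, NumPy 2.4.6, SciPy 1.17.1; R 4.3.3 with edgeR 4.0.16 for TMM only) were tested on simulated data. Gene positions are from GENCODE vM21 and promoters from RefSeq.

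Named are Prm1, Tnp1, list members, the 10 highest and 10 lowest smaller-of-both-libraries log2 ratios of Sd8 to Sd7 and to Sd9 with at least 100 UMIs in each library, the 15 genes highest in Sd8 of 13 clusters, the 5 highest and 5 lowest KO to WT ratios, and the 5 genes most like Prm1 and Tnp1. The cells, genes and lists were chosen with earlier results of these data known. Alternatives were another minimum, prior, total, centring or TMM scaling, the mean of single-cell CPM, thinning to 3000 UMIs, the deepest 5% of cells left out and symbols placed without the rule. Leaving out the 3 cells with over 100 haemoglobin UMIs was chosen after seeing the data.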

Additional observations from a re-analysis of the deposited data

Results flagged for a closer look

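The haemoglobin genes had ratios of at least 2-fold in opposite directions in the libraries, which was not tested, since each genotype is 1 library. For Sd8 against Sd7 the log2 ratio was -3.8 in WT and 6.56 in KO for Hba-a2, -4.73 and 6.86 for Hbb-bs, and -4.78 and 6.2 for Hba-a1. For Sd8 against Sd9 it was -4.79 in WT and 7.01 in KO for Hba-a2, -6.34 and 6.09 for Hbb-bs, and -5.95 and 5.98 for Hba-a1. In each case 1 cell held most of the UMIs: 1028 of 1095 haemoglobin UMIs in Sd7 of WT, 1374 of 1420 in Sd9 of WT and 3702 of 3755 in Sd8 of KO. These 3 cells also held 887, 500 and 2679 UMIs of Prm1.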

How the results depend on the processing

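Counts of genes at least 2-fold apart moved with the rules on low counts and on symbols. With a minimum of 50 UMIs they were 319 (WT) and 273 (KO) for Sd8 against Sd7, 401 and 514 against Sd9 and 23 for KO against WT, in place of 536, 430, 709, 869 and 181. With no minimum they were 990 and 804 against Sd7, 1183 in WT against Sd9 and 579 for KO against WT. With a prior of 10 UMIs they were 352 in WT against Sd7 and 56 for KO against WT. With symbols placed without the 5-cell rule, which leaves fewer genes to read, they were 270 and 213 against Sd7, 369 and 448 against Sd9 and 86 for KO against WT. The other 44 of 60 counts stayed within 1.5 times.

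The split of higher against lower moved by over 10 points between scalings only for Sd8 against Sd9: 455 higher and 254 lower in WT became 548 and 184 when centred on the median gene and 561 and 184 with TMM, and 479 and 390 in KO became 635 and 224, and 672 and 202. Without the 3 haemoglobin-rich cells, chosen after seeing the data, or without the deepest 5% of cells, 8 ratios and 2 list medians that were at least 2-fold as given changed direction, all of haemoglobin genes. Without the 3 cells Hba-a2 had 0.22 in WT and -0.40 in KO for Sd8 to Sd7 and -1.46 for KO to WT, and Hba-a1 -0.16 for Sd8 to Sd9 in KO. Without the deepest 5%, Hba-a1 had -0.14 and Hba-a2 -0.44 for Sd8 to Sd7 in KO, Hba-a1 -0.48 for Sd8 to Sd9 in KO, Hba-a2 -1.49 for KO to WT, and the red blood cell medians in KO were -0.14 against Sd7 and -0.12 against Sd9. Prm1 and Tnp1 were higher in Sd8 than in Sd7 and Sd9 in both libraries under all 12 alternatives. Of these, another minimum and symbols placed without the 5-cell rule only change which genes are read, so they could not turn any such direction. A prior of 10 UMIs adds the same share to both sides of a ratio and could not turn one either. Among the smaller ratios of Prm1, Prm2, Prm3, Tnp1, Tnp2 and H1fnt, that of Prm3 for Sd8 to Sd9 in KO turned in 2 alternatives. That of H1fnt for Sd8 to Sd7 in KO turned in 1 and that of Prm1 for KO to WT in 5.

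No paired analysis was possible because each genotype is 1 library. A gene with under about 10 UMIs over both clusters was not read, and absence of a 2-fold difference in genes of few UMIs says little.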
